A study of Mus musculus with 8 samples.

Results

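The genes described here are 42 interferon-response genes, of 20692 genes measured, in tdTomato-positive cells sorted from the mouse central amygdala. They comprise 6 immunity-related GTPases (IRGs), 7 guanylate-binding proteins (GBPs), 6 transcriptional regulators, 7 genes of nucleic acid sensing, 10 antiviral effectors and 6 genes of the ISG15 system and other regulators. They were picked by name with earlier results of these libraries in view, among them the high levels of Tgtp2 in the libraries of the older mice and the comparison of the sorted populations. The fold changes, counts and p-values of the members in both comparisons therefore describe the choice and are no independent evidence for it.

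The study profiled 2 populations of central amygdala cells, n = 4 libraries each. PKCd libraries came from PKC delta-type::Cre mice and SST libraries from SST::Cre mice. Both lines carried the Rosa::loxP-STOP-loxP-td-Tomato allele, so that Cre, the recombinase, switched on the red reporter in cells that had used the Prkcd or the Sst promoter. All mice were male, with no treatment named in the labels, and each library came from about 1000 sorted cells of 1 mouse. PKCd replicates 1 and 2 were 9 weeks old and SST replicates 1 and 2 were 8 weeks old, here called younger. PKCd replicates 3 and 4 were 18 weeks old and SST replicates 3 and 4 were 20 weeks old, here called older. Reporter labelling records past as well as present promoter use, and tissue was dissociated with papain before sorting.

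Interferons are secreted proteins that bind receptors coupled to JAK kinases. Type I interferons activate a complex with STAT2 and IRF9 that binds the interferon-stimulated response element (ISRE), and genes induced by interferon gamma often carry the gamma-activated site (GAS). The target genes include IRG and GBP GTPases, which assemble on the vacuoles of intracellular pathogens, and effectors that sense or block viral RNA. In the brain, microglia and endothelial cells are well known to respond to interferons, and neurons respond as well.

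The libraries held between 964361 and 18242496 estimated counts, and all 4 younger libraries were deeper than all 4 older ones, so age class and depth cannot be told apart. A code in the names of the deposited files also differed between the age classes, and it cannot be told apart from age either. Prkcd was at 106.5 to 225.7 TPM (a level scaled to transcript length and to the library total) in PKCd libraries and at 0 to 30.2 TPM in SST libraries. Sst was at 116.3 to 296.2 TPM in SST libraries. In the library labelled PKCd replicate 2, Sst was at 222.7 TPM, within the SST range, against 0.209 to 13.7 TPM in the other PKCd libraries. The 8 neuronal markers summed to only 108.1 to 573.1 TPM, whereas the 12 microglial markers summed to 30290 to 49640 TPM in PKCd and 471.2 to 5997 TPM in SST libraries. The 10 endothelial markers summed to 134.7 to 4752 TPM in younger and 2489 to 11220 TPM in older libraries. In every library the neuronal sum was below the microglial sum, which goes against the neuronal label of the sorted cells. Oligodendrocyte markers summed to 11930 to 30050 TPM in PKCd and 10920 to 59990 TPM in SST libraries. Mural markers summed to 102.5 to 3764 TPM in PKCd and 2145 to 10760 TPM in SST libraries. For astrocyte markers the sums were 343.7 to 3911 TPM in PKCd and 2652 to 6886 TPM in SST libraries. In such bulk libraries, fewer cells of a type and less RNA per cell cannot be told apart.

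Of the 30 members with a promoter window, 24 held letters of at least 1 interferon-response motif, as did 12.9% of the 27025 genes in the promoter table. RefSeq (GRCm38.p6) promoter windows of 250 bases before to 50 bases after the annotated start covered these 30 of the 42 members in 38 windows, since some genes have several starts. The ISRE core was searched as GAAA, any 2 bases, GAAA, and the GAS core as TTC, any 3 bases, GAA, on both strands, and matches may overlap. An ISRE core was present in 21 of the 38 member windows and in 3.44% of all 32851 windows in the table. A GAS core was present in 13 member windows and in 8.3% of all windows. Both were present in 9 member windows and in 0.454% of all windows. A match describes letters in the window and not a bound site.

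In 4 IRG promoters the GAS core was followed after 2 bases by the ISRE core, and these are printed here because Tgtp1 and Tgtp2, which had no read in younger libraries, share that arrangement with Igtp and Irgm2. Each line gives the 150 bases before the annotated start, in the direction of the gene, with motif bases in capitals.
Tgtp1 (chr11:48992247-48992396, minus strand): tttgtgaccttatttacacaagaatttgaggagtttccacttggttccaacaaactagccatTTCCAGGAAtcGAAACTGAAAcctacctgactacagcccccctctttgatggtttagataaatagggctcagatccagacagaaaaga
Tgtp2 (chr11:49064213-49064362, minus strand): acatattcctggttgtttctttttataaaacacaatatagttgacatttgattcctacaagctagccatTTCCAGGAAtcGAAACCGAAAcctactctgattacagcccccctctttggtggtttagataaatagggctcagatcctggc
Igtp (chr11:58199406-58199555, plus strand): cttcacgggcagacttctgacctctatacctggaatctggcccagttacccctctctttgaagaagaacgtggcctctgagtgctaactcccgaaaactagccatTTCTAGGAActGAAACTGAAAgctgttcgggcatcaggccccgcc
Irgm2 (chr11:58214827-58214976, plus strand): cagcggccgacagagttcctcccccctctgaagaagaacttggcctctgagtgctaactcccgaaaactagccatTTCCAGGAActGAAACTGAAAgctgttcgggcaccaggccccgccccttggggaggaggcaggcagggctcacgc

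The joined motif, a GAS core, any 2 bases and an ISRE core, was searched for after these matches were seen and occurred in 5 of all 32851 windows (0.0152%). They lay at the 4 genes above and at Gm12185, and all 5 are on chromosome 11. The first base of the GAS core stood 88 bases before the start in Tgtp1, 81 in Tgtp2, 45 in Igtp and 75 in Irgm2. Levels differed among these genes. Igtp and Irgm2 had reads in 3 and 4 of the 4 younger libraries, whereas Tgtp1 and Tgtp2 had none, and Gm12185 reached at most 1.08 TPM and was not tested.

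The 4 promoters below belong to GBPs and effectors to which the results return. Gbp2 and Gbp3 had ISRE cores in the reverse orientation, and Ifi44 had no match in its window. Bst2 had 2 overlapping ISRE cores, the first of which also overlapped a GAS core.
Gbp2 (chr3:142620513-142620662, plus strand): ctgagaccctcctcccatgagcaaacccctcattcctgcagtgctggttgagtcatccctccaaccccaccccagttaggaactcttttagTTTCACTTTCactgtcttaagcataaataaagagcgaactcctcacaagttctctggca
Gbp3 (chr3:142559894-142560043, plus strand): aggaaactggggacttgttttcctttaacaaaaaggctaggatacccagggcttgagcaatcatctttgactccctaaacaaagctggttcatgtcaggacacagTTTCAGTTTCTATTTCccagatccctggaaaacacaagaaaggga
Bst2 (chr8:71537473-71537622, minus strand): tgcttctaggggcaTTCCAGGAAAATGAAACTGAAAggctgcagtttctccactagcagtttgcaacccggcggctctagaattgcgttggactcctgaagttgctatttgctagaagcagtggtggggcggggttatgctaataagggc
Ifi44 (chr3:151749911-151750060, minus strand): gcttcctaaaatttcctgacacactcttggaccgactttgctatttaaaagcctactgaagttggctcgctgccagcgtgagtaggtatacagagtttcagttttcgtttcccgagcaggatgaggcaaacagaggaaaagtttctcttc

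**Figure D1:**
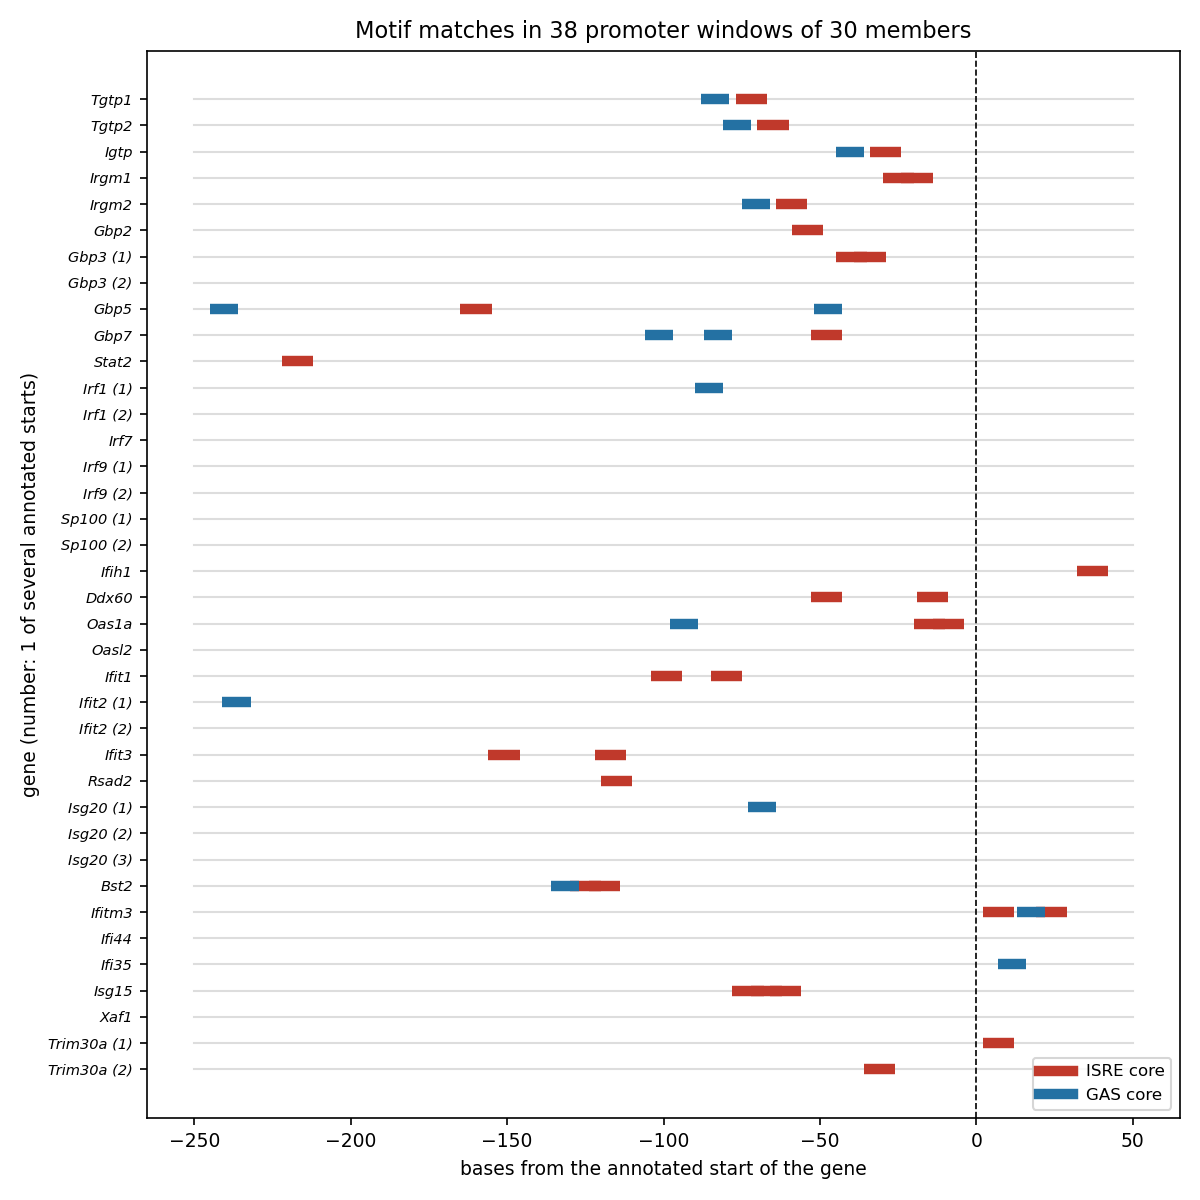
Positions of ISRE core (red) and GAS core (blue) matches in the 38 promoter windows of 30 members, in bases from the annotated start (dashed line). Adjacent blue and red marks are seen in Tgtp1, Tgtp2, Igtp and Irgm2, and overlapping ones in Bst2 and Ifitm3. Neither motif is held by 13 windows.

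The first comparison set the 4 older against the 4 younger libraries. Only 1 member, Tgtp2, rose past the threshold, an adjusted p under 0.05 in edgeR's quasi-likelihood test over 11328 genes, and 0 members fell. Over all genes tested, 0.0265% were called higher and 0.0265% lower in older libraries. A total of 34 members had enough reads to be tested, and Gbp5, Nlrc5, Ddx60, Zbp1, Ifi204, Oas2, Ifit2 and Rsad2 did not. At an unadjusted p under 0.05, 9 members were higher and 0 lower, against 2.94% and 5.41% of all genes. The fitted log2 difference was positive for 32 of the 34, against 45.2% of all genes, with a median of 3.24 for the members and -0.16 for all genes. All 4 older libraries lay above all 4 younger ones for 7 tested members, namely Tgtp1, Tgtp2, Iigp1, Gbp2, Gbp3, Ifi44 and Usp18. That order held for 4.15% of all genes and the opposite one, shown by 0 tested members, for 3.53%. Of the 7, Tgtp1, Tgtp2, Iigp1 and Usp18 had enough reads to be tested only through the older libraries. Being tested thus already required reads of them in all 4 older libraries, so their order was partly set by the filter. DESeq2, run as an alternative, called 14 members higher and 0 lower, where it called 2.26% and 2.75% of all genes. Without the filter on low counts edgeR called 7 members higher, where 0.689% of all genes were.

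**Figure D2:**
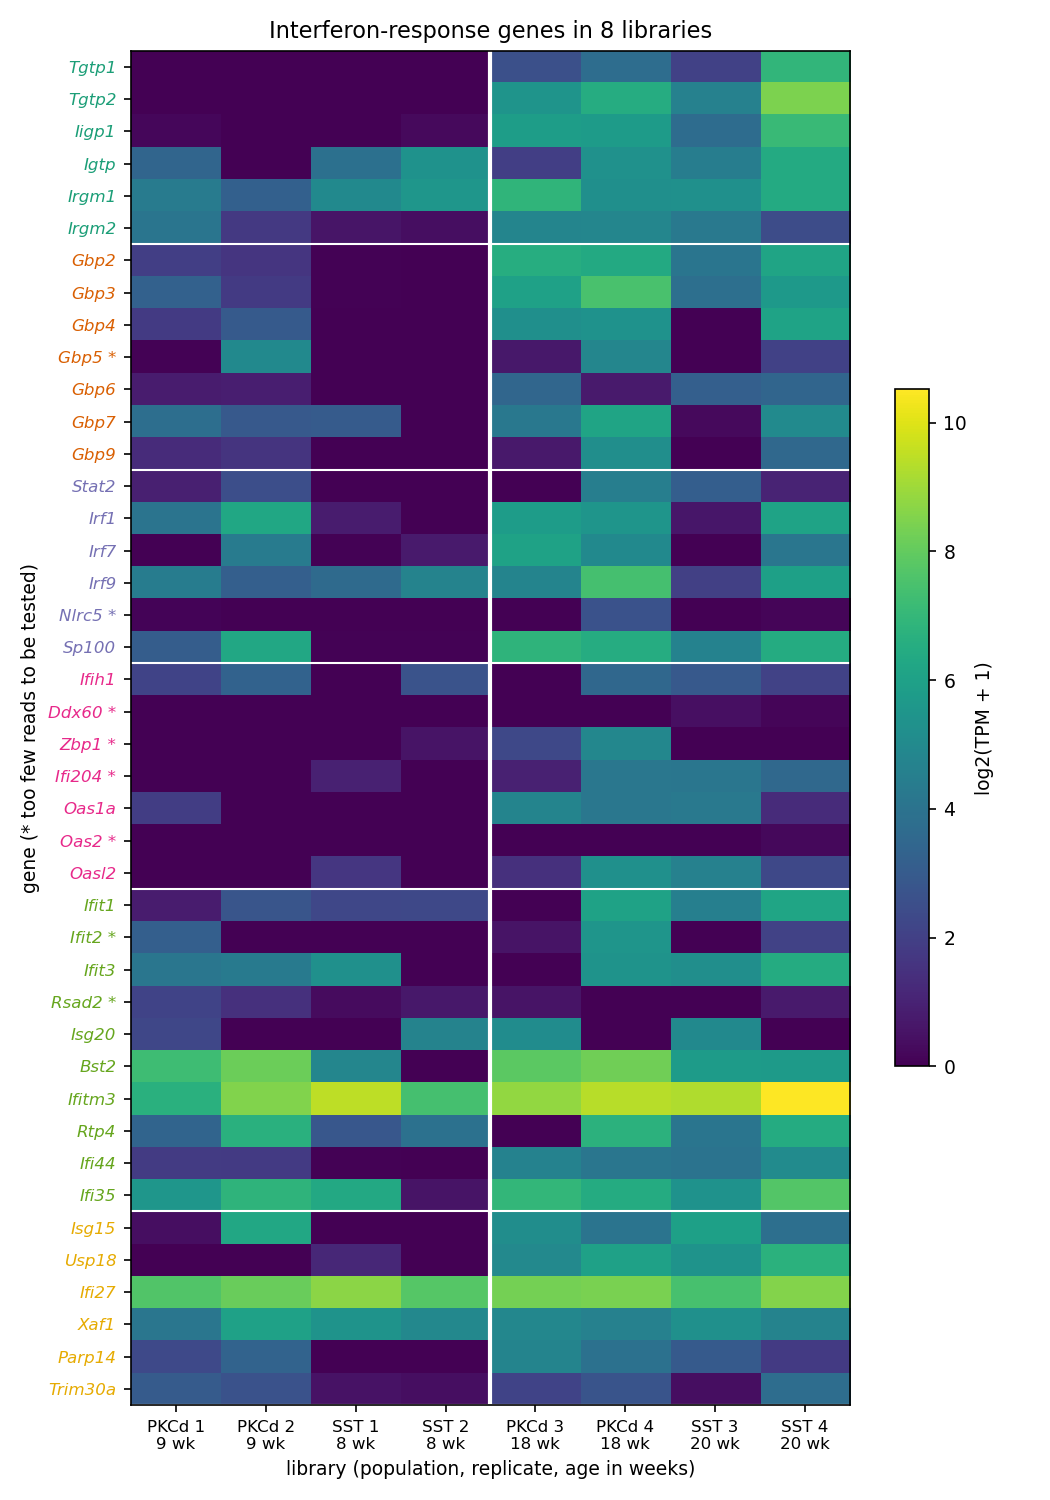
Level of each of the 42 members, as log2(TPM + 1), in each library, younger mice left of the white line and older mice right of it, with genes grouped by role and an asterisk on the 8 not tested. Tgtp1, Tgtp2, Iigp1, Gbp2, Gbp3 and Usp18 are near 0 or low on the left in all 4 libraries, while Ifitm3 and Ifi27 are high on both sides.

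The IRGs are GTPases of cell-autonomous immunity, and their 6 members include the one that was called. Tgtp1 and Tgtp2 are near-identical neighbours on chromosome 11 (48985329 to 48992246 and 49057196 to 49064212, GRCm38.p6) whose longest coding transcripts matched at 2804 of 2823 aligned bases. Of the 31-base words in Tgtp1, 84.4% also occur in other genes, and of those in Tgtp2, 94.7%. The division of reads between them is therefore uncertain, and their sum is the safer value. The sum was 0 reads in each of the 4 younger libraries. In older libraries it was 47.4 and 103.5 TPM in PKCd replicates 3 and 4, and 27.0 and 469.6 TPM in SST replicates 3 and 4. These stood for 72, 247, 67 and 1959 reads. The older libraries did not overlap the younger ones, and SST replicate 4 was the highest by far.

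A younger library with no read allows up to 3 counts, which is at most 0.291 CPM (counts scaled to a common library total). That floor covers only counting error, as amplified reads share molecules, and the folds below are lower limits for that error alone. Against that per-library floor, the older mean of 263.2 CPM for the sum was at least 905.1-fold higher, and the lowest older library at least 147.6-fold higher. SST replicate 4 alone was at 776.5 CPM, and without it the older mean was 92.1 CPM, at least 316.7-fold higher. The fitted log2 difference of the sum was 13.96 ± 1.56 (SE; adjusted p = 0.0374, edgeR), a value that depends on the prior count because the younger libraries are at 0. Without SST replicate 3 the sum stayed past the threshold (adjusted p = 0.0236), and without the library labelled PKCd replicate 2 it did not (0.0779). Leaving out any other library ended the call: the adjusted p over the 8 such fits ran from 0.0236 to 0.21.

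Tgtp2 alone was at 42.4, 90.8, 23.95 and 348.1 TPM in PKCd replicates 3 and 4 and SST replicates 3 and 4, and Tgtp1 at 5.00, 12.7, 3.09 and 121.5 TPM in the same order. Both had 0 reads in every younger library. The fitted difference was 13.61 ± 1.55 for Tgtp2 (adjusted p = 0.0374, edgeR) and 11.52 ± 2.16 for Tgtp1 (adjusted p = 0.129). Of the 8 fits that left out a library, only the one without SST replicate 3 kept the Tgtp2 call, and the adjusted p over the 8 ran from 0.0413 to 0.21.

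Iigp1, an IRG that loads onto parasite vacuoles, was at 0.152 TPM in PKCd replicate 1, 0.199 TPM in SST replicate 2 and 0 in the other younger libraries. In older libraries it was at 57.4 and 53.6 TPM (PKCd) and 12.3 and 140.8 TPM (SST). The groups did not overlap, and the difference of 9.35 ± 1.52 did not pass in the main test (adjusted p = 0.0722, edgeR). Irgm1, a regulatory IRG that restrains the others, was at 19.9, 8.43, 30.7 and 45.3 TPM in the younger libraries (PKCd replicates 1 and 2, then SST replicates 1 and 2). It was at 116.0, 36.9, 37.5 and 85.9 TPM in the older libraries (PKCd replicates 3 and 4, then SST replicates 3 and 4). The Irgm1 groups overlapped (1.38 ± 0.82, adjusted p = 0.692, edgeR). Igtp ranged from 0 to 40.2 TPM in younger and 2.85 to 84.8 TPM in older libraries, and Irgm2 from 0.307 to 15.8 and 4.52 to 27.1 TPM.

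**Figure D3:**
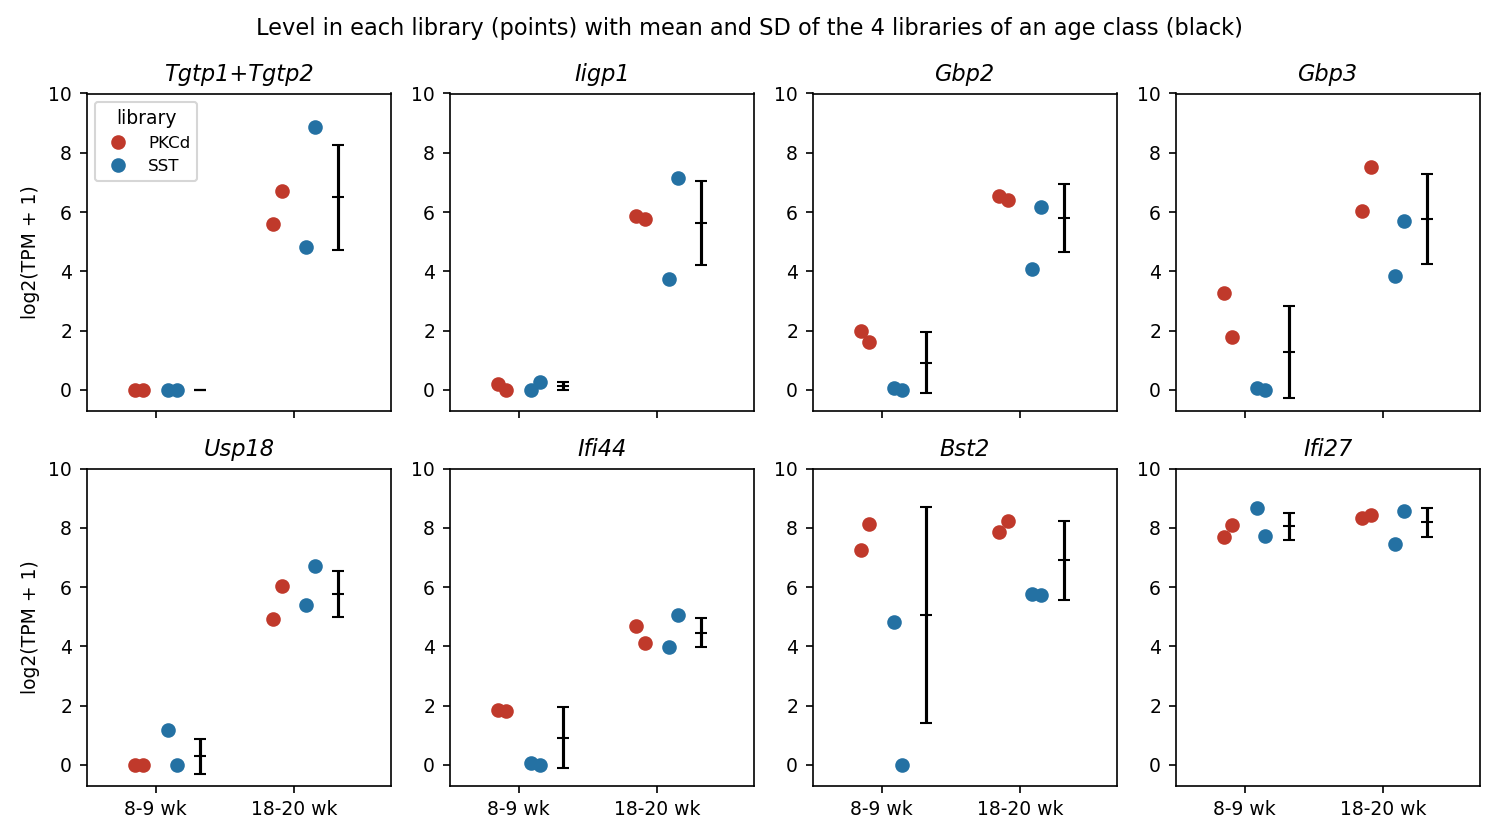
Level of 8 members as log2(TPM + 1) in each younger (8-9 wk) and older (18-20 wk) library, PKCd red and SST blue, with the mean and SD of the 4 libraries of an age class in black. Tgtp1 and Tgtp2 summed, Iigp1, Gbp2, Gbp3, Usp18 and Ifi44 have no overlap between age classes, an order of 4.15% of all genes. Tgtp1, Tgtp2, Iigp1 and Usp18 had enough reads to be tested only through the older libraries. Bst2, 1 of the 34 tested members, has none between populations, an order of 3.88% of all genes. Ifi27 overlaps in both.

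GBPs are larger interferon-induced GTPases that coat pathogens and their vacuoles. All 6 tested GBPs had positive differences between older and younger libraries, 3 of them at an unadjusted p under 0.05, and 0 passed the adjusted threshold. Gbp2 was at 2.92, 2.09, 0.0394 and 0 TPM in the younger libraries and at 92.0, 83.1, 15.9 and 70.3 TPM in the older ones, each in the order PKCd then SST. Gbp3 was at 8.61, 2.41, 0.037 and 0 TPM in the younger libraries and at 63.8, 181.6, 13.2 and 50.8 TPM in the older ones. Neither gene overlapped between age classes, and within each age class both SST libraries lay below both PKCd libraries. The fitted differences were 7.11 ± 1.60 for Gbp2 (adjusted p = 0.156, edgeR) and 6.55 ± 1.56 for Gbp3 (adjusted p = 0.182).

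The other tested GBPs overlapped. Gbp4 had 0 reads in SST replicates 1, 2 and 3 and 67.8 TPM in SST replicate 4. Gbp9 likewise had 0 reads in SST replicates 1, 2 and 3 and 10.6 TPM in SST replicate 4, and its highest value was 35.4 TPM in PKCd replicate 4. Gbp6 did not exceed 9.96 TPM in any library, and 94.4% of its 31-base words occur in other genes. Gbp7 was at 0.0202 to 13.1 TPM in younger and 0.199 to 68.7 TPM in older libraries. Gbp5 was not tested, and its highest level was in a younger library, 31.1 TPM in PKCd replicate 2.

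The transcriptional regulators showed positive differences without a call. Of 6 members, 5 were tested, all 5 were positive with a median log2 difference of 3.28, and 0 had an unadjusted p under 0.05. IRF9 is the DNA-binding subunit of the complex formed by type I interferon. Irf9 was at 20.6, 8.11, 11.6 and 24.8 TPM in the younger libraries and at 25.8, 171.3, 2.96 and 62.6 TPM in the older ones, so that an older library, SST replicate 3, was the lowest of all. Sp100, a nuclear body protein, was at 7.503, 77.5, 0.0454 and 0.0556 TPM in the younger libraries and at 114.3, 91.5, 24.3 and 88.7 TPM in the older ones. The younger PKCd replicate 2 was within the older range. Stat2 (up to 21.7 TPM), Irf1 (up to 76.8 TPM) and Irf7 (up to 66.4 TPM) also overlapped. Nlrc5, the MHC class I transactivator, was not tested. It had 33 reads over the older libraries, 32 of them in PKCd replicate 4, and 5 over the younger ones, all in PKCd replicate 1.

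Nucleic acid sensing members were scarce. Of 7, 3 were tested, and 1 (Oas1a) had an unadjusted p under 0.05. Oas1a makes oligoadenylates that activate RNase L. It was at 2.72 TPM in PKCd replicate 1 and 0 in the other younger libraries, and at 25.6, 16.9, 18.15 and 1.49 TPM in the older ones (5.97 ± 2.47, adjusted p = 0.539, edgeR). Of its 31-base words, 68.8% occur in other genes. Oasl2 was at 2.21 TPM in SST replicate 1 and 0 in the other younger libraries, and at 1.77, 37.3, 23.8 and 3.84 TPM in the older ones (6.30 ± 3.11, adjusted p = 0.625). Ifi204, a DNA sensor that was not tested, was at 0 to 0.937 TPM in younger and 0.959 to 16.9 TPM in older libraries, and 46.0% of its words are shared. Ifih1, which senses long double-stranded RNA, differed by only 0.19 ± 1.87.

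Antiviral effectors held the most abundant member. Ifitm3, a membrane protein that blocks virus entry, was at 101.2, 372.2, 703.9 and 168.3 TPM in the younger libraries and at 445.6, 663.8, 605.6 and 1465 TPM in the older ones. These overlapped (0.89 ± 0.68, adjusted p = 0.758, edgeR). Ifi44 was at 2.59, 2.49, 0.0355 and 0 TPM in the younger libraries and at 24.7, 16.4, 15.0 and 32.3 TPM in the older ones. Its age classes did not overlap, and the difference of 5.85 ± 2.26 did not pass the threshold (adjusted p = 0.524, edgeR). Ifit1 had its highest levels in PKCd replicate 4 (65.4 TPM) and SST replicate 4 (71.7 TPM) but 0 reads in the older PKCd replicate 3. Rsad2, the radical SAM enzyme viperin, had 216 reads over the younger libraries and 5 over the older ones, at no more than 3.30 TPM in any library.

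Members of the ISG15 system and its companions differed widely among themselves. Usp18, the protease that removes ISG15 and restrains the type I receptor, was at 1.24 TPM in SST replicate 1 and 0 in the other younger libraries. It was at 29.7, 64.2, 41.0 and 104.5 TPM in the older ones, with no overlap (8.17 ± 2.11, adjusted p = 0.232, edgeR). Isg15 itself, the ubiquitin-like modifier, was highest in a younger library, 77.1 TPM in PKCd replicate 2, and ranged from 13.5 to 62.6 TPM in the older ones. Ifi27 was at 203.5, 275.2, 407.4 and 211.0 TPM in the younger libraries and 319.2, 341.0, 175.9 and 375.6 TPM in the older ones (-0.23 ± 0.55, adjusted p = 0.937). Xaf1, a pro-apoptotic gene, was at 16.7, 63.95, 40.9 and 29.0 TPM in the younger libraries and 28.0, 23.4, 37.9 and 24.7 TPM in the older ones (-0.64 ± 0.78, adjusted p = 0.866). Ifi27 and Xaf1 were the 2 tested members without a positive difference.

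Within PKCd mice, both older libraries lay above both younger ones for 19 of the 34 tested members, against 20.0% of all genes. Within SST mice the count was 18, against 23.4%. Tgtp1, Tgtp2, Iigp1 and Usp18, which were tested only because of their reads in older libraries, are in both counts. Within either population alone 0 members were called by edgeR, where 0.00883% of all genes were in PKCd and 0% in SST. The age difference was not found to differ between populations: 0 of 11328 genes passed the interaction test of edgeR (adjusted p of 0.9997 for each member). Each of the 4 combinations of age class and population held only 2 libraries.

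Values that moved with the members are given here, and their part in the results was not tested. Without Ifitm3 and Ifi27, the members summed to 396.5, 937.5, 266.5 and 191.1 TPM in the younger libraries and 1302, 1957, 618.5 and 1990 TPM in the older ones. The 10 endothelial markers were positive in all 10 cases in older against younger libraries, 6 with an unadjusted p under 0.05 and 0 called. Their sums were highest in PKCd replicate 4 (11220 TPM) and SST replicate 4 (9913 TPM). These libraries also had the highest member sums, 1957 and 1990 TPM. The younger PKCd replicate 2 had 4752 endothelial TPM, above the 2989 and 2489 TPM of the older PKCd replicate 3 and SST replicate 3, and had 0 reads of Tgtp1, Tgtp2, Iigp1 and Usp18. In that same library Rtp4 (100.6 TPM), Sp100 (77.5 TPM), Isg15 (77.1 TPM) and Irf1 (76.8 TPM) were high, and its member sum of 937.5 TPM exceeded the 618.5 TPM of the older SST replicate 3. Of the 12 microglial markers 11 were negative in older against younger libraries (median log2 difference -1.32, 2 at an unadjusted p under 0.05). Within PKCd their differences ran from -0.71 (C1qa) to 1.07 (P2ry12), and within SST from -3.66 (Trem2) to 0.18 (Tmem119). Of 8 mural markers 7 were positive (median 1.57, 2 at an unadjusted p under 0.05), as were 7 of 8 astrocyte markers (median 0.67, 0 at that p). All 7 tested neuronal markers were negative (median -2.56, 3 at that p), and so were 6 of 8 oligodendrocyte markers (median -0.93, 1 at that p), with 0 called in any of these lists. T and NK cell markers summed to 0.374 to 9.78 TPM, with Cd3g, Cd2 and Gzma at 0 in every library.

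**Figure D4:**
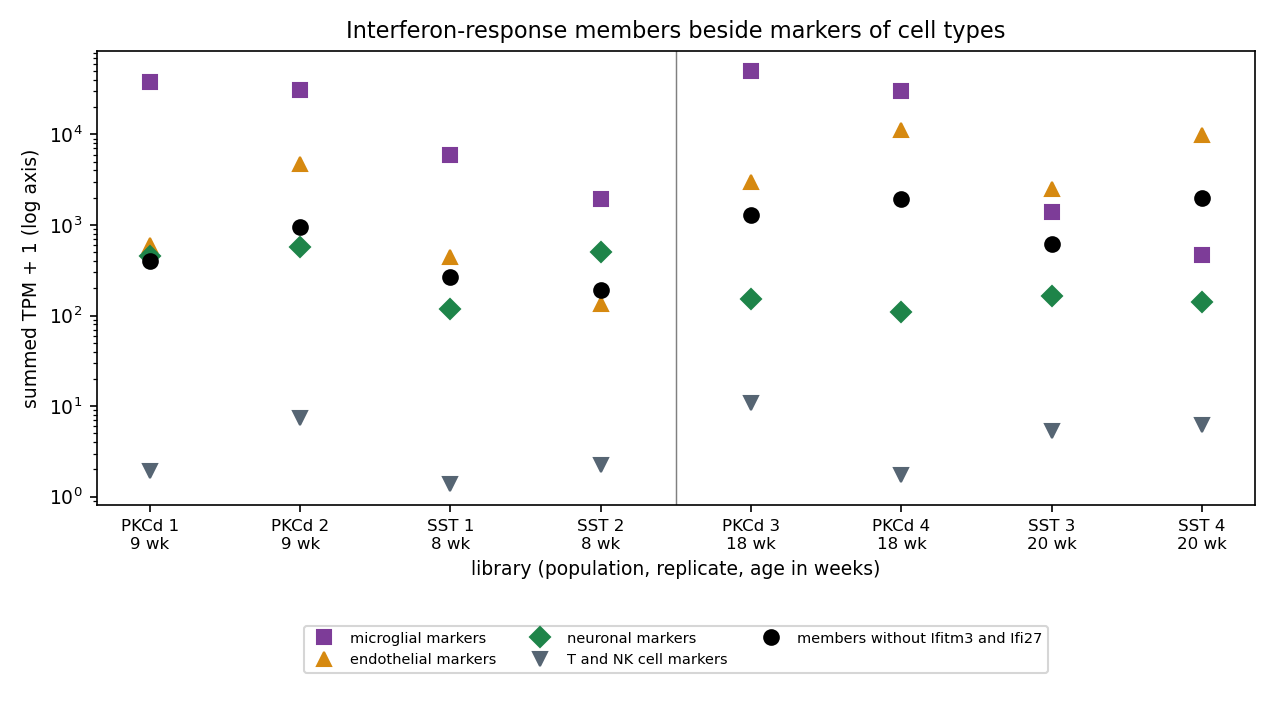
Summed TPM + 1 on a log axis of the members without Ifitm3 and Ifi27 (black) and of 4 marker lists, for each library, younger mice left and older mice right of the line. Endothelial sums are highest in PKCd 4 and SST 4, microglial sums separate PKCd from SST, and T and NK cell sums stay under 10 TPM.

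The second comparison set PKCd against SST libraries. Of the 34 tested members, 0 were called in either direction by edgeR, against 0.282% of all genes called higher and 0% called lower in PKCd. At an unadjusted p under 0.05, 3 members were higher in PKCd (Bst2, Gbp3 and Parp14) and 0 lower, against 4.33% and 2.34% of all genes. DESeq2 called 3 higher (Gbp3, Parp14 and Sp100) and 0 lower, where it called 3.2% and 0.812% of all genes. The difference was positive for 21 members, against 47.3% of all genes, with a median of 1.26 for the members and -0.08 for all genes. Without the library labelled PKCd replicate 2, 0 members were called as well.

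Bst2, or tetherin, holds budding virus particles on the cell surface, and it was the only tested member whose populations did not overlap, an order found in 3.88% of all genes, with the opposite one in 3.05%. It was at 153.0, 280.5, 231.9 and 299.7 TPM in PKCd replicates 1 to 4, and at 27.4, 0, 54.1 and 52.0 TPM in SST replicates 1 to 4. The difference was 3.02 ± 1.33 (adjusted p = 0.721, edgeR), beside 0.70 ± 1.25 between age classes. Parp14, an ADP-ribosyltransferase, was at 4.05, 9.24, 26.0 and 14.2 TPM in PKCd and 0, 0, 6.90 and 2.49 TPM in SST libraries (5.69 ± 2.28, adjusted p = 0.623).

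In the population comparison, all 6 tested GBPs had positive PKCd minus SST differences, with a median of 3.52 and 4.17 ± 1.47 for Gbp3 (adjusted p = 0.486, edgeR). In the younger SST libraries GBP levels were near 0 apart from Gbp7, at 7.20 TPM in SST replicate 1. Among younger libraries alone, the 6 differences ran from 1.10 (Gbp7) to 9.85 (Gbp4). Among older libraries alone they ran from -0.68 (Gbp6) to 1.93 (Gbp3). Of the 6 IRGs, 5 were negative, among them Tgtp1 at -2.31 ± 1.68 and Tgtp2 at -1.38 ± 1.12, and Irgm2 was positive (2.82 ± 1.42). None of these passed the threshold in edgeR. Without SST replicate 4, Tgtp1 and Tgtp2 turned positive, at 0.98 and 1.21, and Iigp1 (-0.29 ± 1.13) changed sign in 6 of its 17 alternatives. The difference between the families was not tested. Microglial markers moved with the populations: all 12 were higher in every PKCd library than in any SST library, and 4 (Tmem119, Cx3cr1, Csf1r and C1qa) were called. Endothelial markers were positive in 9 of 10 cases (median 3.18, 3 at an unadjusted p under 0.05), and all 8 mural markers were negative (median -2.46, 4 at that p), with 0 of either list called. The part of these cell types in the Bst2, GBP and IRG differences was not tested.

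**Figure D5:**
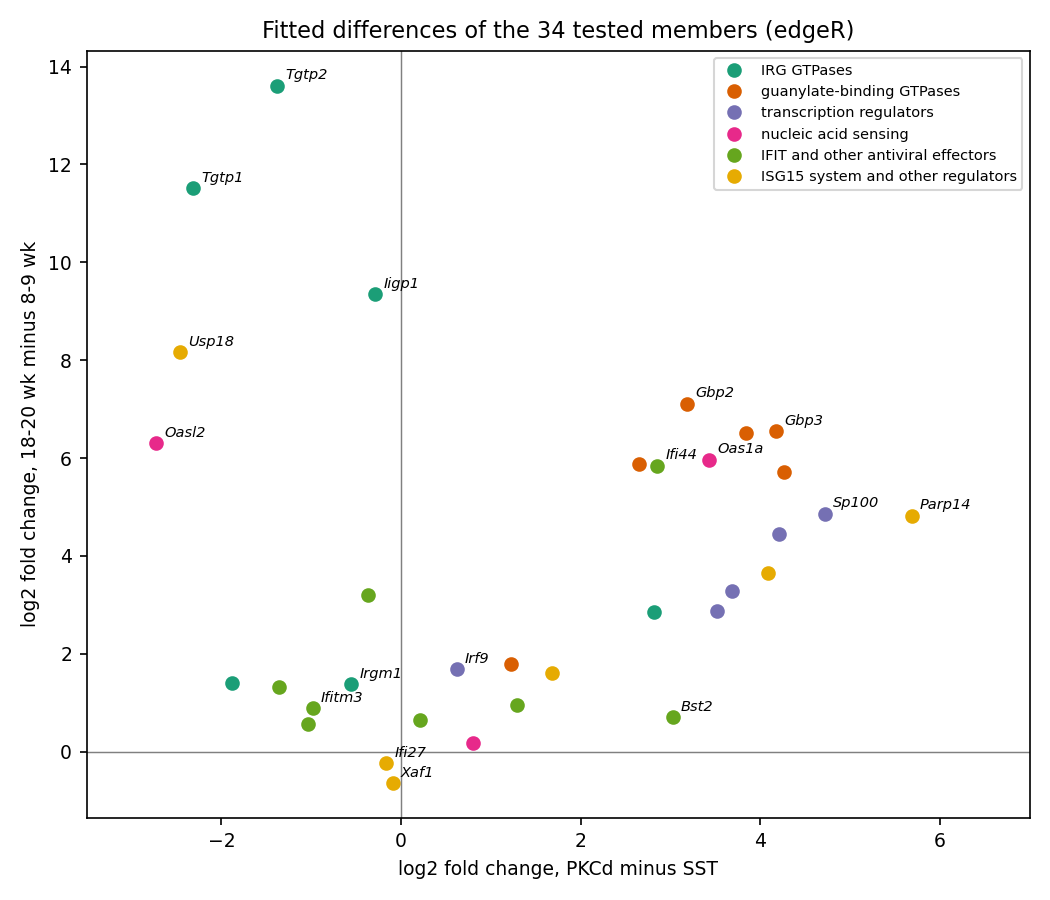
Fitted log2 fold changes of the 34 tested members, PKCd minus SST on the horizontal and older minus younger on the vertical axis, coloured by role. GBPs lie in the upper right, Tgtp1 and Tgtp2 at the upper left, and Ifi27 and Xaf1 alone below 0 on the vertical axis; only Tgtp2 passed the adjusted threshold.

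The rest of the pathway is described by lists chosen beside the members, and 0 genes of any of the lists below were called in either comparison. Of 10 interferon genes, 9 had 0 reads in every library, Ifng among them, and Ifnk had 33 reads (7.15 TPM) in PKCd replicate 2 alone. A count of 0 allows up to 3 counts, or 0.164 to 3.11 CPM depending on the library, so low ligand levels were not detectable at this depth. Of the 6 receptor subunits, Ifnlr1 had 0 reads in 5 of the 8 libraries and Il10rb in SST replicate 2. Ifngr1, of the interferon gamma receptor, was at 212.1 to 513.5 TPM in PKCd and 32.8 to 244.5 TPM in SST libraries, and Ifnar2, of the type I receptor, at 51.8 to 255.6 TPM over all 8. The 5 tested receptors had a median age difference of 0.88.

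Among the signalling genes, the kinase gene Jak1 was at 26.3 to 55.0 TPM in younger and 59.3 to 112.0 TPM in older libraries, without overlap. In CPM its age classes overlapped, at 96.6 to 212.0 in younger and 183.2 to 334.8 in older libraries. The fitted Jak1 difference was 0.68 ± 0.48 (adjusted p = 0.735, edgeR), and Stat3 was at 3.15 to 95.2 TPM. Among 11 tested sensors and adaptors, with a median age difference of 0.17, Sting1 was at 102.7 to 116.0 TPM in PKCd and 0.0551 to 22.7 TPM in SST libraries. Irf5 was at 87.0 to 154.9 TPM in PKCd and 0 to 7.37 TPM in SST libraries. Of the feedback inhibitors, Ptpn6 was at 77.5 to 311.7 TPM in PKCd and 0 to 37.7 TPM in SST libraries, and Pias1 at 43.6 to 89.9 TPM throughout.

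A further list held 42 interferon-induced genes outside the members. Of these, 26 were tested, 20 had a positive difference with a median of 0.44, and 0 had all older above all younger libraries. Ifitm2 and Ifitm1, relatives of Ifitm3, were the most abundant, and both overlapped between age classes. Ifitm2 was at 74.6 to 407.0 TPM in PKCd and 149.5 to 1382 TPM in SST libraries. Ifitm1 was at 43.3 to 70.3 TPM in PKCd and 48.7 to 513.9 TPM in SST libraries. The 12 genes of MHC class I presentation, tested in full, had a median age difference of 1.03 and a median population difference of 1.88. B2m, the class I light chain, was at 1405 to 2987 TPM in PKCd and 260.7 to 1398 TPM in SST libraries. H2-D1, a class I heavy chain, was at 108.4 to 550.9 TPM in younger and 581.8 to 1435 TPM in older libraries (1.48 ± 0.46, adjusted p = 0.383, edgeR).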

How the data were processed

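Each deposited file gives, per transcript, an estimated count and a TPM value made by the authors with kallisto, per the file headers. The deposited TPM values are scaled to transcript length and to 1 total, so they keep no depth. Versions in the submitters' processing notes are kallisto 0.43.0 and BWA 0.7.12, with the mm10 build, and no source used here says what BWA did.

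The 30404 targets were joined to 20692 genes through RefSeq (30080 targets) and GENCODE (147) names, and 177 kept their accession. These estimated counts were then summed by gene and made whole. Both comparisons used the quasi-likelihood test of edgeR 4.0.16 (R 4.3.3) with TMM scaling, the default filter by population and terms for population and age class, with Benjamini-Hochberg adjustment over 11328 genes and a threshold of 0.05. The fit was tested on simulated data. A log2 fold change is older minus younger or PKCd minus SST, and its SE comes from the F statistic. Alternatives were RLE scaling, no filter, DESeq2 1.42.0, limma 3.58.1 on log2(TPM + 1) and log2(TPM + 0.1), thinning to the shallowest library, a model with 1 term, fits within a class, a replicate block and leaving out each library.

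Depth ran from 964361 to 18242496 estimated counts, and 1 read was worth 0.0548 to 1.04 CPM. Floors of 3 counts cover only counting error, as amplified reads share molecules. Because each library is 1 mouse, the p-values take in animal, sorting and amplification spread.

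Members and lists were chosen with earlier results of these data known. Values in every library are given for Tgtp1, Tgtp2, called or non-overlapping tested members and, per role group, the 2 with the highest mean TPM. From each pathway list the 2 genes with the highest mean are given, and marker lists are given by counts and sums. Further genes named were chosen after their values were seen. Replicate numbers do not pair the samples by animal, as the mice differ. Deviations of same-numbered libraries from their population means correlated at 0.06 to 0.17, and these deviations still hold the age difference. Deviations from the means of population and age class correlated at -0.005 to -0.003. With 2 libraries per combination those deviations are equal and opposite, so the check cannot decide whether same-numbered libraries shared a batch.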

Additional observations from a re-analysis of the deposited data

Results flagged for a closer look

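In 65 groups of 4 libraries, the highest or lowest value of a named member was compared with the other 3, and 13 stood apart by Dixon's criterion. Chance flags about 1 in 20 groups when the values are normally distributed. TPM values with many zeros need not follow that rate. The PKCd and SST groups also hold both age classes, and many of the groups share libraries.

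SST replicate 4 stood apart in 5 of these. Tgtp1 at 121.5 TPM lay far above the other older libraries (3.09 to 12.7 TPM) and above the other SST libraries (0 to 3.09 TPM). Among SST libraries, Tgtp2 at 348.1 TPM lay above 0 to 23.95 TPM, the sum of both at 469.6 TPM above 0 to 27.0 TPM, and Iigp1 at 140.8 TPM above 0 to 12.3 TPM.

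PKCd replicate 4 stood apart among PKCd libraries for Irf9 (171.3 TPM against 8.11 to 25.8 TPM) and Oasl2 (37.3 TPM against 0 to 1.77 TPM). SST replicate 3 stood apart among SST libraries for Oas1a (18.15 TPM against 0 to 1.49 TPM) and Oasl2 (23.8 TPM against 0 to 3.84 TPM).

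Among the younger libraries, PKCd replicate 2 stood apart for Sp100 (77.5 TPM against 0.0454 to 7.503 TPM). PKCd replicate 1 was the only younger library with Oas1a reads (2.72 TPM), and SST replicate 1 the only one with Oasl2 reads (2.21 TPM) or Usp18 reads (1.24 TPM).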

How the results depend on the processing

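The number of members called higher in older libraries was 1 in the main test, 0 with RLE scaling, 7 with no filter, 14 with DESeq2, 4 with limma on log2(TPM + 1), 0 with limma and no filter, 0 after thinning and 0 within PKCd or within SST libraries. Of all genes, 0.689% were called higher with no filter and 2.26% with DESeq2. The share was not counted for limma, so its 4 members have no background beside them. Leaving out 1 library gave 0 to 1 members called, with 1 only without SST replicate 3. The sum of Tgtp1 and Tgtp2 (13.96) was no longer past the threshold with limma and no filter (6.50), within PKCd (12.89) or within SST (14.66), and leaving out 1 library gave 12.35 to 14.74. DESeq2 called 3 members higher in PKCd. Fits of the main test that left out 1 library called 0 to 0 there, as did the main test, and DESeq2 was not refitted without a library. The cause of these differences was not tested. Members with a positive difference numbered 30 to 35 (age) and 18 to 29 (population) when 1 library was left out.

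Of 285 alternative values of the 16 named members in the age comparison, 6 reversed, all of Ifi27, which was not called: 0.14 with each limma fit (0.1444 or 0.1448), 0.11 within PKCd, and -0.46 to 0.31 without 1 library (0.05 without SST replicate 3). Of 299 in the population comparison, 27 reversed, none of a called value. Without 1 library, the values ran from -3.0 to 0.98 for Tgtp1, -2.14 to 1.21 for Tgtp2, -0.90 to 0.90 for Iigp1 (0.21 without SST replicate 2), -0.32 to 1.11 for Irf9, -5.13 to 0.49 for Oasl2, -0.45 to 0.31 for Ifi27 (0.02 without PKCd replicate 1 and 0.05 without SST replicate 4) and -0.56 to 0.16 for Xaf1 (0.15 without SST replicate 1, 0.02 without SST replicate 3). Iigp1 was at 0.17 (pseudocount 1, with and without a filter) or 0.14 (0.1) in limma, and Ifi27 at 0.02512 (pseudocount 1, with and without a filter) or 0.02542 (0.1). Within older libraries Irgm1 was at 0.33, Oasl2 at 0.61, Ifi44 at -0.18 and Ifi27 at 0.18, and within younger libraries Irf9 was at -0.30 and Xaf1 at 0.05181. Oasl2 was at 0.44 with no term for age.

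With the replicate block, 0 members were called for PKCd against SST, 24 were positive with a median of 1.56, Iigp1 was at 0.32 and Ifi27 at 0.02534. Not every library correlated best with its own number. No paired analysis was possible for the age comparison because age class is fixed by the replicate number.

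Depth limits the older libraries most: 3 counts are 1.19 to 3.11 CPM there and 0.164 to 0.291 CPM in the younger ones.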

Other observations

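Markers of neutrophils and monocytes, 7 of 8 matched to a gene, summed to 195.5 TPM in SST replicate 3 and 72.3 TPM in SST replicate 4, against 0 to 14.5 TPM in the other 6 libraries. In SST replicate 3 these were mainly S100a8, S100a9 and Ly6c2, with 18, 16 and 25 reads. In SST replicate 4 they were mainly Ccr2 (67.3 TPM), with 0 reads of S100a8 and S100a9. Border macrophage markers summed to 517.2 TPM in PKCd replicate 2 and to 0.111 to 96.5 TPM in the others.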
